A study of Homo sapiens with 15 samples.

Results

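The genes described here are 10 transcription factors of the AP-1 and early response class: ATF3, FOS, FOSB, FOSL1, FOSL2, JUN, JUNB, JUND, EGR1 and MYC. They were chosen by symbol, and all 10 occurred once among the 60612 genes of the deposited table. RNA-seq gave their mRNA levels in 15 libraries of stably transfected U251 and U87 cells, both established human glioma lines. The libraries fall into 5 groups of 3: U251 with the hairpin 1812, U251 with the hairpin 1813, U251 control, U87 with the hairpin 1812, and U87 control. The hairpins are short hairpin RNAs against LAMP2A, the splice form of LAMP2 that acts as receptor in chaperone-mediated autophagy, and hairpin cells are labelled LAMP2A knockdown. Control cells are labelled WT, and the labels name neither a control hairpin nor an empty vector for them. Whether a hairpin line is 1 clone or a pool, and whether replicates are separate cultures, is not stated in the labels. The p-values below therefore measure the spread between libraries, which may be technical.

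AP-1 is a dimer of basic leucine zipper proteins. JUN, JUNB and JUND can pair with themselves or with a FOS family protein (FOS, FOSB, FOSL1, also called FRA1, and FOSL2, also called FRA2), whereas FOS family proteins bind DNA stably only with a partner. ATF3 is a related leucine zipper factor induced by many stresses, EGR1 is a zinc finger factor induced through serum response factor and ELK proteins, and MYC is a basic helix-loop-helix factor that pairs with MAX and drives growth genes. FOS, FOSB, JUNB, EGR1 and ATF3 are classical immediate early genes whose transcripts rise within minutes of a stimulus and decay quickly. FOSL1 is known in glioma as a factor of the mesenchymal state.

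Total counts ranged from 14002652 to 18924072 per library. LAMP2, counted over the whole gene and not by splice form, stood at 316, 314 and 328 CPM (counts relative to the library size after TMM scaling) in U251 with hairpin 1812. It stood at 388, 419 and 400.2 CPM in U251 with hairpin 1813, and at 659, 712 and 711 CPM in U251 control. In U87 it was 257, 256 and 289 CPM in the libraries labelled hairpin 1812 against 195, 294 and 292 CPM in control. The U87 hairpin libraries thus lay above control replicate 1 and below control replicates 2 and 3. Whether LAMP2 was lower in U87 at gene level depended on the control library. Both lines held the mesenchymal and glioma markers VIM (594 to 1190 FPKM, fragments per kilobase of exon scaled to library depth) and CD44 (113 to 219 FPKM). Other markers of the same list set the lines apart. SOX2 was at 40.75 to 81.93 FPKM in U251 and at most 0.13 FPKM in U87. NES was at 35.5 to 54.37 FPKM in U251 and 4.57 to 9.86 FPKM in U87. S100B and OLIG2 reached at most 0.89 and 0.51 FPKM in any library. The glial GFAP reached 1.09 to 13.01 FPKM in U251 and 0.08 to 0.19 FPKM in U87, and the astrocyte channel AQP4 was at most 0.01 FPKM in any library. GFAP moved with the U251 groups: it averaged 17.6 ± 7.53 CPM with hairpin 1812, 55.0 ± 10.5 CPM with hairpin 1813 and 116 ± 25.0 CPM in U251 control (SD, n = 3 each). It fell with hairpin 1812 against control (log2 fold change -2.72, edgeR adjusted p 0.000268) and stood lower than with hairpin 1813 (-1.65, edgeR adjusted p 0.0275). Summed over 19 markers of neurons, oligodendrocytes, leukocytes, endothelium, epithelium and red cells, the level was 2.26 to 4.02 FPKM in U251 with hairpin 1812, 1.40 to 1.67 with hairpin 1813 and 2.25 to 2.36 in U251 control. The sum was 9.20 to 10.5 FPKM in U87 with hairpin 1812 and 4.44 to 10.5 in U87 control, and MOG, CD3E, HBB and HBA1 were listed at 0 in all 15 libraries. The neuron marker SNAP25 was the highest of the 19, with 2.09 to 8.36 FPKM in U87 and 0.55 to 1.98 FPKM in U251. No other marker of the 19 exceeded 0.86 FPKM. In bulk RNA a change in the number of cells that express a gene and a change in RNA per cell cannot be told apart.

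Replicates 2 and 3 of both controls stood apart from the remaining 11. The mean exonic length, weighted by counts, was 6.53 to 6.77 kb, against 5.61 to 5.92 kb in those 11, and the nuclear RNA NEAT1 was at 30.4 to 40.8 FPKM against 2.93 to 13.3 FPKM. Among the 10 factors, the mean of replicates 2 and 3 differed from replicate 1 by over 1.5-fold for 6 in U87 control and 3 in U251 control. The same split gave 0 in U251 with hairpin 1812, 1 in U251 with hairpin 1813 and 1 in U87 with hairpin 1812. EGR1 had 12.8, 36.5 and 41.9 CPM in the U87 controls, in the order of replicates 1, 2 and 3, and 12.8, 22.1 and 21.0 CPM in the U251 controls. JUNB had 122, 55.0 and 49.1 CPM in the U87 controls, and FOSL1 had 498, 272 and 271 CPM. These splits were of the size of the hairpin effects or larger, so values against control replicate 1 alone are given beside the hairpin results whose call or direction they change.

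**Figure D1:**
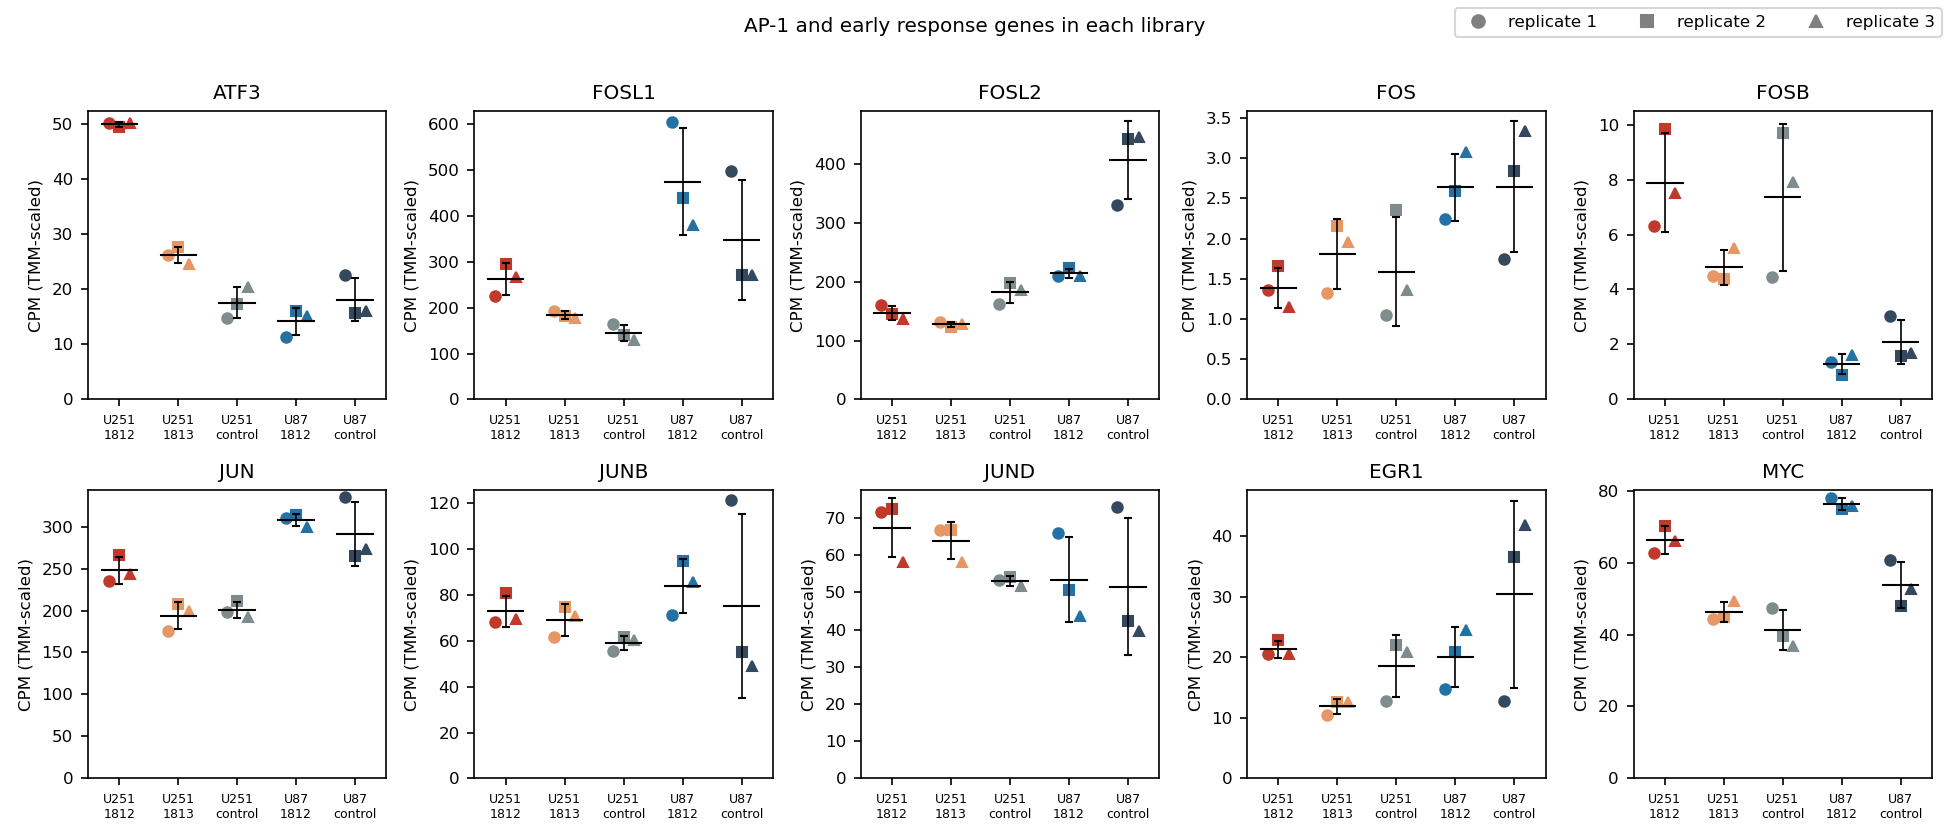
Level of each of the 10 factors in each library, in CPM on a linear axis from 0. Points are libraries, with a symbol for the replicate number, and the black bar and whiskers are the mean and SD of 3 libraries. ATF3 in U251 with hairpin 1812 sits at 49.4 to 50.2 CPM, above all 12 other libraries, and the U87 controls split into replicate 1 against replicates 2 and 3 for EGR1, JUNB, JUND and FOSL1.

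Per length, FOSL1 was the most abundant of the 10 in all 5 groups and JUN the next. FOSL1 averaged 146 ± 18.0 FPKM in U251 with hairpin 1812, 98.0 ± 2.46 with hairpin 1813 and 81.3 ± 6.71 in U251 control, and 230.4 ± 58.2 in U87 with hairpin 1812 and 176 ± 49.1 in U87 control (SD, n = 3 each). JUN averaged 79.5 ± 4.60, 59.9 ± 6.07 and 65.5 ± 4.09 FPKM in the same U251 groups, and 86.5 ± 1.46 and 86.8 ± 3.67 FPKM in the U87 groups. In U251 the order then ran JUNB, JUND, FOSL2 and MYC in each group. The JUNB and JUND ranges overlapped in U251 with hairpin 1813 (33.0 to 41.4 against 30.6 to 35.0 FPKM) and did not in U251 control (30.8 to 36.2 against 28.0 to 30.3 FPKM). In U87 control FOSL2 came before JUNB (56.1 ± 13.4 against 39.0 ± 17.0 FPKM), within a spread that overlaps, while in U87 with hairpin 1812 it came after JUNB (27.4 ± 0.586 against 41.9 ± 5.46 FPKM). ATF3 ranked above EGR1 in both U251 hairpin groups, and EGR1 above ATF3 in the other groups. The immediate early genes FOS (0.33 to 1.08 FPKM) and FOSB (0.14 to 1.88 FPKM) were the lowest in every group, with 17 to 54 and 15 to 194 counts per library, so counting error alone limits what their values can show.

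By FPKM, FOSL1 and FOSL2 together made up nearly all of the FOS family. FOSL1 took 83.4% to 87.4% of the family sum in U251 with hairpin 1812, 82.9% to 83.9% with hairpin 1813 and 71.1% to 78.6% in U251 control. In U87 it took 86.8% to 91.4% with hairpin 1812 and 69.3% to 84.8% in control. The ratio of FOSL1 to FOSL2, a measure picked after its values were seen and so given with no test, was 5.37, 7.71 and 7.40 in U251 with hairpin 1812. It was 5.57, 5.61 and 5.29 with hairpin 1813, against 3.85, 2.68 and 2.65 in U251 control. In U87 it was 10.97, 7.44 and 6.84 with hairpin 1812, against 5.72, 2.33 and 2.30 in control. All 9 hairpin libraries thus lay above the 3 controls of their line, control replicate 1 included. FOSL2 has an exonic length of 7162 bases and FOSL1 one of 1887, and the ratio was lowest in the 4 control libraries with the longest count-weighted gene length. How far that property of the libraries enters the ratio was not tested. JUN kept 44.1% to 63.9% of the JUN family sum across all libraries.

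**Figure D2:**
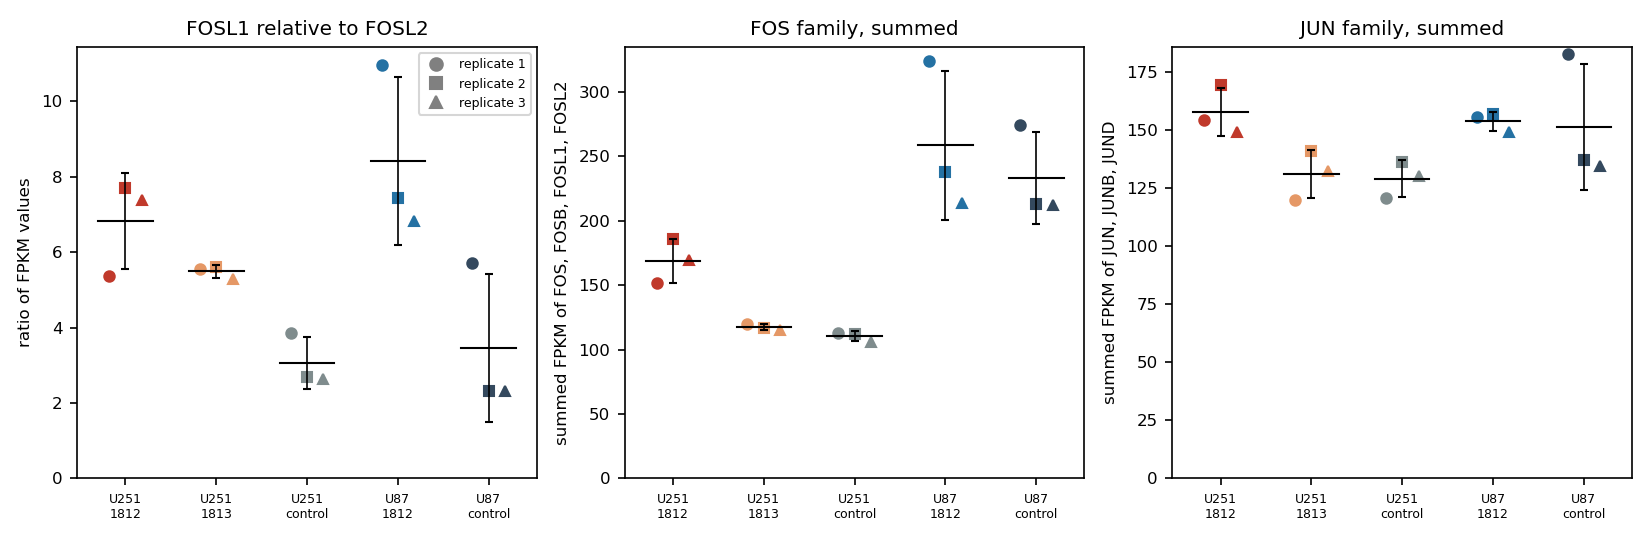
Ratio of FOSL1 to FOSL2 FPKM (left), summed FPKM of the FOS family (middle) and of the JUN family (right) in each library, on linear axes from 0. Points are libraries, and bars and whiskers are the mean and SD of 3. The ratio is 5.29 to 7.71 in the 6 U251 hairpin libraries against 2.65 to 3.85 in U251 control, and 6.84 to 10.97 in U87 with hairpin 1812 against 2.30 to 5.72 in U87 control.

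Promoter windows are shown for ATF3 and FOSL2, whose hairpin effects held in the most alternatives, for JUN and JUND, which share an element with ATF3, and for EGR1, which holds matches to the CArG box. None is shown for MYC and FOSL1. RefSeq windows (GRCh38.p14, the build family of the deposited positions) matched 8 of the 10 genes, with 2 start sites for ATF3. The 250 bases before each start are printed 5' to 3' on the gene's strand, kept to the stretch outside exons that GENCODE 29 gives that gene. For JUN, where such an exon covers the window, only 30 bases around the match are given. Capitals mark matches to the motifs named below. The windows are chr1:212565157-212565333 (ATF3, first start, plus strand), chr1:212614768-212615017 (ATF3, internal start, plus), chr1:58784096-58784125 (JUN, minus), chr19:18281623-18281872 (JUND, minus), chr5:138465229-138465478 (EGR1, plus) and chr2:28392608-28392801 (FOSL2, plus). The FOSL2 stretch lies inside the deposited gene, which begins at 28392448, and precedes a RefSeq start further downstream.
ATF3 first start: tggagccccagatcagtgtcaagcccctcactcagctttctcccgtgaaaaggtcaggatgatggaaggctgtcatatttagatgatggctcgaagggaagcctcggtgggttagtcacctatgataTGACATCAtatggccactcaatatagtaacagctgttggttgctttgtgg
ATF3 internal start: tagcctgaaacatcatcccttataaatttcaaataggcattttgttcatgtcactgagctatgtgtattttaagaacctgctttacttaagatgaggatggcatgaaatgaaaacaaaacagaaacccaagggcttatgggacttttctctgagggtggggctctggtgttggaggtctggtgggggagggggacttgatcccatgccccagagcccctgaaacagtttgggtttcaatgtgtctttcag
JUN: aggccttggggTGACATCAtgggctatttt
JUND: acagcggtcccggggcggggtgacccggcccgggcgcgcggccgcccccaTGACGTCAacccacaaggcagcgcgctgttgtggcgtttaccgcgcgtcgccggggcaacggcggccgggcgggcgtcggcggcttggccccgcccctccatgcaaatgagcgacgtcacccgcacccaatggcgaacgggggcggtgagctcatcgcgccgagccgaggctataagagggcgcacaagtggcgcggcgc
EGR1: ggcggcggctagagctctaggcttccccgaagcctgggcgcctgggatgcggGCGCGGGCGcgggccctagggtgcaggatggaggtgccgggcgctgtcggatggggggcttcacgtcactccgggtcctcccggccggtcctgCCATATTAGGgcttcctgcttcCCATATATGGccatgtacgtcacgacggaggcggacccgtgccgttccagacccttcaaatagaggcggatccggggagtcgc
FOSL2: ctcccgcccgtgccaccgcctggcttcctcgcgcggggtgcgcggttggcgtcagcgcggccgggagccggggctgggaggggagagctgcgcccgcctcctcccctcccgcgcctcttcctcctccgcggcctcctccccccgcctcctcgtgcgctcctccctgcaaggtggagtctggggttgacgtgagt

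Both strands of the 250 bases were searched for 6 motifs in 35116 windows of all genes, of which 9 belong to the 10 factors. The ATF/CRE octamer TGACNTCA was found in 6.87% of all windows and in those of ATF3 (first start), JUN and JUND. ATF3 and JUN carry it as TGACATCA, 123 to 116 and 67 to 60 bases before the start, and JUND carries the palindrome TGACGTCA 200 to 193 bases before. The CArG box, the site of serum response factor, was found in 1.16% of windows and as a pair of matches in that of EGR1, 105 to 96 and 83 to 74 bases before its start. The EGR motif GCGNGGGCG (8.41% of windows) was found in the EGR1 window alone among the 9. The AP-1 heptamer TGANTCA (6.57%), the E-box CACGTG (6.34%) and the octamer TGATGCAA (0.772%) had no match in the 9 windows, and no matches of different motifs overlapped there. The counts sum over the whole gene and do not say which ATF3 start was used. Sequence of ATF3 outside these windows was not searched, and whether any printed window acts as a promoter was not tested.

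In U251 with hairpin 1812, ATF3 and MYC rose. FOSL1 was 1.81-fold higher, with an edgeR adjusted p of 0.092, and of 0.0424 with the replicate number as a block. GFAP, the glial marker given above, fell in the same libraries, and its part in these results was not tested. The comparison sets hairpin 1812 against cells labelled WT, for which no control hairpin is named. It cannot tell loss of LAMP2A apart from other effects of the hairpin. The test was edgeR's quasi-likelihood test across 16841 genes, two-sided, with Benjamini-Hochberg adjustment over all of them, and a gene passed at an adjusted p under 0.05. Of the 10 factors 2 passed higher and 0 lower, where 0.992% of all genes passed, 0.41% higher and 0.582% lower. At an unadjusted p under 0.05 there were 5 (ATF3, FOSL1, JUN and MYC higher, FOSL2 lower), and DESeq2 and limma each called 3 (ATF3, FOSL1 and MYC). Over all genes DESeq2 called 280 of 36513 higher and 492 lower, and limma 186 of 16841 higher and 207 lower. No share of all genes at an unadjusted p was computed in any comparison, so those counts have no background beside them. In 7 of the 10 the groups did not overlap, 6 with every hairpin library higher and 1, FOSL2, with every one lower, where 28.6% of all genes had such groups (14.9% higher, 13.7% lower). The median log2 fold change of the 10 was 0.30, beside 0.01 for all genes.

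ATF3 (ENSG00000162772, chromosome 1, 212565334 to 212620777, plus strand, positions of the deposited table) had 50.2, 49.4 and 50.2 CPM in U251 with hairpin 1812, against 14.8, 17.4 and 20.5 CPM in U251 control. The 3 hairpin libraries were nearly equal and every one lay above the highest control. The log2 fold change was 1.51 (SE 0.18, edgeR adjusted p 0.00142, 95% interval 1.13 to 1.89). It passed in all 14 alternatives, between 1.32 and 1.75, and stood at 1.75 against control replicate 1 alone. MYC (ENSG00000136997) had 62.6, 70.3 and 65.9 CPM with hairpin 1812, against 47.5, 39.5 and 36.7 CPM in U251 control. The groups did not overlap, and the log2 fold change was 0.68 (SE 0.13, edgeR adjusted p 0.0285). MYC missed the threshold with control replicate 1 as sole control (0.48, adjusted p 0.105), and also with any 1 library other than control replicate 1 left out (adjusted p 0.0754 to 0.177).

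FOSL1 (ENSG00000175592, chromosome 11, 65892049 to 65900573, minus strand) had 227, 296 and 266 CPM in U251 with hairpin 1812, against 165, 140 and 130.3 CPM in U251 control. Every hairpin library lay above every control, yet the gene missed the threshold (log2 fold change 0.86, SE 0.23, edgeR adjusted p 0.092). With the replicate number as a block it passed (0.89, edgeR adjusted p 0.0424), and without a block it passed in 4 of the other 13 alternatives. Its FOS family relative FOSL2 had 160.1, 146 and 137 CPM with hairpin 1812, against 163, 198 and 187 CPM in U251 control (log2 fold change -0.31, SE 0.14, edgeR adjusted p 0.291). Control replicate 1 lay just above the highest hairpin library.

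The JUN genes had smaller differences in U251 with hairpin 1812, and none passed in edgeR, DESeq2 or limma. JUN (ENSG00000177606) had 235, 266 and 243 CPM against 199, 212 and 193 CPM in U251 control (log2 fold change 0.30, 95% interval 0.03 to 0.57, edgeR adjusted p 0.263). JUNB had 68.3 to 80.7 CPM against 55.6 to 61.6 CPM, and JUND 58.2 to 72.4 CPM against 51.7 to 54.3 CPM, in both cases with no overlap. EGR1, FOSB and FOS overlapped with the controls. EGR1 (ENSG00000120738) had 20.5, 23.0 and 20.5 CPM with hairpin 1812, against 12.8, 22.1 and 21.0 CPM in U251 control (log2 fold change 0.20, 95% interval -0.52 to 0.91), and passed with the library type as a term (1.02, edgeR adjusted p 0.0281). FOSB, with 6.32, 9.85 and 7.50 CPM against 4.44, 9.71 and 7.91 CPM, and FOS, with 1.36, 1.65 and 1.15 CPM against 1.05, 2.35 and 1.36 CPM, had intervals from -0.57 to 0.77 and from -0.97 to 0.56. Against control replicate 1 alone FOS stood at 0.39, where it was -0.20 against all controls, and passed in neither.

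**Figure D3:**
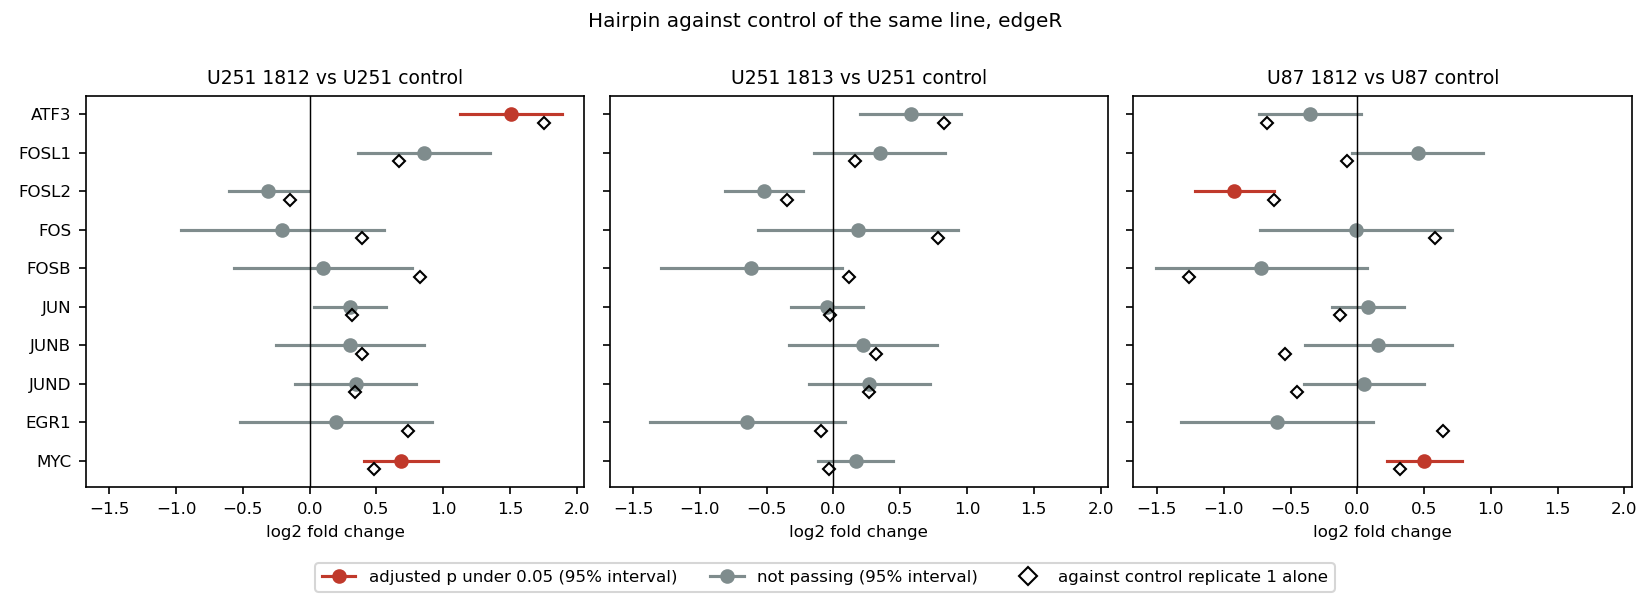
Log2 fold change of each factor, hairpin over control of the same line, from edgeR, with 95% intervals. Red marks an adjusted p under 0.05 and open diamonds give the value against control replicate 1 alone. ATF3 (1.51) and MYC (0.68) pass in U251 with hairpin 1812, no factor passes with hairpin 1813, and FOSL2 (-0.92) and MYC (0.50) pass in U87 with hairpin 1812.

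With hairpin 1813 in U251, 0 of the 10 factors passed in edgeR, where 0.0475% of all genes did (0.0178% higher, 0.0297% lower). At an unadjusted p under 0.05 there were 2, ATF3 higher and FOSL2 lower, DESeq2 called 1 (FOSL2, log2 fold change -0.54, adjusted p 0.00986) and limma 0. Over all genes DESeq2 called 64 of 36513 higher and 166 lower, and limma 13 of 16841 higher and 72 lower. ATF3 had 26.3, 27.6 and 24.7 CPM, against 14.8, 17.4 and 20.5 CPM in U251 control (log2 fold change 0.58, SE 0.18, edgeR adjusted p 0.274, interval 0.20 to 0.95). Every hairpin library lay above every control. FOSL2 (ENSG00000075426, chromosome 2, 28392448 to 28417317, plus strand) had 132, 123 and 128 CPM, against 163, 198 and 187 CPM, again with no overlap (log2 fold change -0.52, SE 0.14, edgeR adjusted p 0.249). Groups did not overlap for 5 of the 10 factors, where 25.7% of all genes had such groups (13% higher, 12.6% lower). These were ATF3, FOSL1 and JUND, higher, and FOSL2 and EGR1, lower. MYC had 44.4, 45.0 and 49.4 CPM against 47.5, 39.5 and 36.7 CPM (interval -0.11 to 0.45), and EGR1 had 10.5, 12.6 and 12.6 CPM against 12.8, 22.1 and 21.0 CPM. FOSB averaged 4.80 ± 0.625 CPM with hairpin 1813 and 7.35 ± 2.68 CPM in U251 control, FOS 1.81 ± 0.435 CPM and 1.59 ± 0.680 CPM, JUN 194 ± 16.4 CPM and 201 ± 9.56 CPM, and JUNB 69.1 ± 6.85 CPM and 59.2 ± 3.14 CPM (SD, n = 3 each). Their groups overlapped. Against control replicate 1 alone the log2 fold change of EGR1 was -0.09, beside -0.65 with all controls, and those of MYC (-0.03, beside 0.17) and FOSB (0.12, beside -0.62) changed sign, with none passing. Both comparisons in U251 used the same 3 control libraries.

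Set directly against hairpin 1813, hairpin 1812 had higher ATF3, MYC, JUN, FOSL1, EGR1, FOSB and FOSL2 in every library, without any of them passing across all groups. In edgeR 0 of the 10 passed, where 0.0772% of all genes did (0.0475% higher, 0.0297% lower). There were 6 with an unadjusted p under 0.05, all higher, and DESeq2 and limma each called ATF3 and MYC. Over all genes DESeq2 called 62 of 36513 higher and 30 lower, and limma 60 of 16841 higher and 7 lower. The 7 factors whose groups did not overlap were all higher with hairpin 1812, where 24.3% of all genes had such groups (12.2% higher, 12.1% lower). ATF3 averaged 49.9 CPM with hairpin 1812 and 26.2 CPM with hairpin 1813 (log2 fold change 0.93, SE 0.17, edgeR adjusted p 0.0887, interval 0.56 to 1.30). EGR1 averaged 21.3 CPM and 11.9 CPM (log2 fold change 0.84, edgeR adjusted p 0.733, SE 0.34), and MYC 66.3 CPM and 46.3 CPM (0.52, SE 0.13, adjusted p 0.314). Fitted on these 6 libraries alone, where 350 of 14842 genes passed higher and 275 lower, edgeR passed 5 of the 10, all higher: ATF3 (0.93, adjusted p 0.000385), EGR1 (0.84, 0.00444), MYC (0.52, 0.0107), FOSL1 (0.51, 0.0186) and JUN (0.35, 0.0456). JUNB (interval -0.48 to 0.63) and JUND (-0.37 to 0.53) overlapped between the hairpins, as did FOS (-1.15 to 0.38), and passed in neither fit.

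In U87 with hairpin 1812, FOSL2 fell by 47.2% and MYC rose 1.42-fold, while ATF3 did not rise. Of the 10 factors 1 passed higher and 1 lower, where 13.6% of all genes passed, 5.86% higher and 7.74% lower. FOSL2 had 209, 224 and 211 CPM with hairpin 1812, against 331, 444 and 446 CPM in U87 control, with a wide gap between the groups (log2 fold change -0.92, SE 0.14, edgeR adjusted p 0.00136, interval -1.22 to -0.63). Against control replicate 1 alone it was -0.63 (adjusted p 0.00338), and only in a fit of the 6 U87 libraries by themselves did it not pass (-0.94, adjusted p 0.107). MYC had 78.1, 75.0 and 75.7 CPM, against 60.8, 48.1 and 52.7 CPM in U87 control (log2 fold change 0.50, SE 0.13, edgeR adjusted p 0.0217). All hairpin libraries were above all controls, but MYC lost the call in 9 of 14 alternatives, among them control replicate 1 alone (0.32, adjusted p 0.104), in the fit of the U87 libraries by themselves (adjusted p 0.188) and without any 1 library other than control replicate 1 (adjusted p 0.0565 to 0.112).

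The other 8 factors overlapped between U87 with hairpin 1812 and U87 control, where 24.1% of all genes had groups that did not overlap (11.9% higher, 12.2% lower) and 2 of the 10 factors did. ATF3 had 11.4, 16.0 and 15.1 CPM with the hairpin, against 22.6, 15.7 and 16.0 CPM in control (log2 fold change -0.35, interval -0.73 to 0.03, edgeR adjusted p 0.2), and passed lower against control replicate 1 alone (-0.68, edgeR adjusted p 0.016). FOSL1 had 605, 439 and 380 CPM, against 498, 272 and 271 CPM (0.45, interval -0.04 to 0.94), and its value was -0.07 against control replicate 1 alone and 0.82 without that replicate (edgeR adjusted p 0.00127). EGR1 had 14.8, 20.8 and 24.6 CPM, against 12.8, 36.5 and 41.9 CPM, which gave 0.64 against control replicate 1 alone and -0.95 without it (edgeR adjusted p 0.0017). JUNB had 71.1, 94.8 and 85.9 CPM, against 122, 55.0 and 49.1 CPM, with -0.54 (edgeR adjusted p 0.0305) and 0.70 (0.000664) in the same fits. JUND had 66.0, 50.6 and 43.6 CPM, against 72.9, 42.3 and 39.6 CPM (0.05, interval -0.40 to 0.50), with -0.45 against control replicate 1 alone and 0.40 without it (edgeR adjusted p 0.0445). JUN had 299.6 to 314 CPM against 265 to 336 CPM (0.08, interval -0.19 to 0.35), with -0.13 and 0.21 in the same fits, passing in neither. The direction of FOSL1, EGR1, JUNB, JUND and JUN in U87 therefore turned with the control libraries used. FOSB had 1.35, 0.882 and 1.61 CPM, against 3.03, 1.59 and 1.67 CPM (-0.72, edgeR adjusted p 0.209), and passed lower against control replicate 1 alone (-1.26, edgeR adjusted p 0.0273). FOS had 2.25 to 3.08 CPM against 1.75 to 3.34 CPM (-0.01, interval -0.73 to 0.71). It stood at 0.58 against control replicate 1 alone and at -0.22 without that replicate, passing in neither, so its direction turned as well.

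The effect of hairpin 1812 on ATF3 differed between the lines. The difference of the effects, U87 minus U251, was -1.86 log2 units (SE 0.25, edgeR adjusted p 0.00204), from means of 14.2 and 18.1 CPM in U87 with the hairpin and control, and of 49.9 and 17.5 CPM in U251. It passed in all 20 alternatives, between -2.43 and -1.66. Of the 10 factors 1 passed this test, where 4.51% of all genes did (2.19% higher, 2.32% lower). FOSL2 followed without passing (-0.61, SE 0.19, edgeR adjusted p 0.0873), and the MYC effects differed by -0.18 (interval -0.58 to 0.21). The differences for FOSB (-0.82), EGR1 (-0.80), FOSL1 (-0.41), JUND (-0.29), JUN (-0.22), JUNB (-0.14) and FOS (0.20) did not pass either. Against control replicate 1 of each line alone the differences were larger for FOSB, at -2.08, and for JUNB, at -0.93. Both effects of hairpin 1812 on MYC were positive, and the interval still allows a difference about as large as either effect.

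Without a hairpin, U251 had less FOSL1, FOSL2, JUN and MYC than U87 and more FOSB. Of the 10 factors 5 passed, 1 higher and 4 lower, where 50% of all genes did (24% higher, 26% lower), so their share was at the background. Groups did not overlap for the same 5, where 50.7% of all genes had such groups (25.7% higher, 25% lower). FOSL2 averaged 183 CPM in U251 control and 407 CPM in U87 control (log2 fold change -1.16, SE 0.14, edgeR adjusted p 7.11e-06). FOSL1 averaged 145 CPM and 347 CPM (-1.26, SE 0.23), and JUN 201 CPM and 291 CPM (-0.54, SE 0.13). FOSB averaged 7.35 CPM and 2.10 CPM (1.81, SE 0.34, edgeR adjusted p 0.000403) and stood at 0.55, without passing, between the replicates 1 of both controls. MYC averaged 41.2 CPM and 53.9 CPM (-0.39, SE 0.13, edgeR adjusted p 0.0234) and lost it in 6 of 14 alternatives. FOS (edgeR adjusted p 0.093, and 0.0452 with the replicate block) and EGR1 (0.0932, and 0.0435 with the block) were lower in U251 control at -0.73 and -0.71. ATF3 (17.5 CPM and 18.1 CPM, interval -0.42 to 0.33), JUNB (-0.35) and JUND (0.04) did not pass. These values turned on the control libraries used. Between the replicates 1 of both controls ATF3 stood at -0.61, JUNB at -1.13, JUND at -0.45 and EGR1 at -0.01. With U87 control replicate 1 left out, ATF3 stood at 0.15, JUNB at 0.19, JUND at 0.38 (edgeR adjusted p 0.0454) and EGR1 at -1.07 (0.000351). Without U87 control replicate 1, 7 of the 10 passed, as also with the library type as a term. In the first setting 5101 of 17441 genes passed higher and 5139 lower. In the second it was 5125 of 16841 higher and 5204 lower.

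The same line contrast in the hairpin 1812 libraries, which share no library with the control contrast, also had 5 of 10 passing, 2 higher and 3 lower, where 51.7% of all genes did (26.4% higher, 25.3% lower). FOSB (7.89 CPM in U251 and 1.28 CPM in U87, log2 fold change 2.63, SE 0.36), FOSL1 (263 CPM and 475 CPM, -0.85, SE 0.23) and FOSL2 (148 CPM and 215 CPM, -0.54, SE 0.14) differed in the direction seen between the controls. ATF3 was higher in U251 there (49.9 CPM and 14.2 CPM, log2 fold change 1.82, SE 0.18, edgeR adjusted p 9.81e-07). FOS passed at 1.39 CPM and 2.64 CPM (-0.92, edgeR adjusted p 0.0395) and lost the call in 7 of 14 alternatives. JUN (-0.31, edgeR adjusted p 0.0504), MYC (-0.20), JUNB (-0.20), JUND (0.34) and EGR1 (0.09) did not pass. Groups did not overlap for 7 of the 10, 2 higher and 5 lower, where 69.6% of all genes had such groups (35.4% higher, 34.2% lower).

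**Figure D4:**
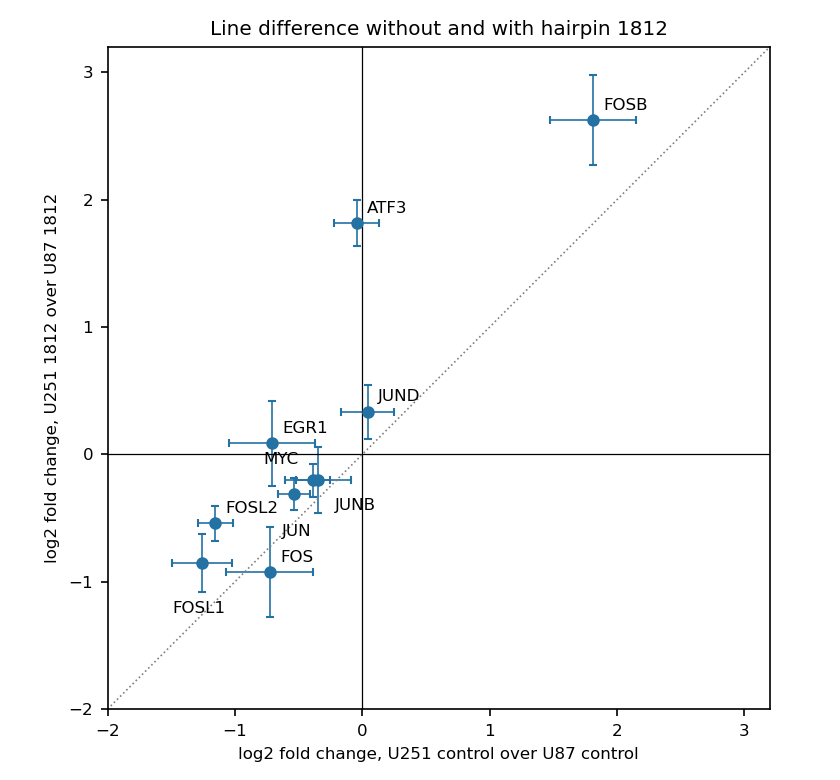
Log2 fold change of each factor between the lines, U251 over U87, in control libraries (x axis) and in hairpin 1812 libraries (y axis), with SE bars from edgeR and a dotted line of equality. ATF3 lies at -0.04 on the x axis and 1.82 on the y axis, while FOSB is at 1.81 and 2.63 and FOSL1 at -1.26 and -0.85.

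The partners, regulators and targets of these factors were followed in 7 lists of 148 genes in all, of which 144 were tested. In U251 with hairpin 1812, 4 of the 144 rose and 0 fell, or 2.78%, where 0.992% of all genes passed (35 had an unadjusted p under 0.05 in either direction, DESeq2 called 13 and limma 4), with a median log2 fold change of 0.14 beside 0.01 for all genes. These were the small MAF protein MAFF (51.2 ± 1.82 CPM against 22.0 ± 3.85 CPM, log2 fold change 1.22, edgeR adjusted p 0.02), the stress factor DDIT3 (0.74, adjusted p 0.0261), the ERK phosphatase DUSP5 (36.2 ± 4.57 CPM against 14.3 ± 3.06 CPM, 1.34, adjusted p 0.00219) and the chemokine CXCL8 (1.77, adjusted p 0.00162). By list this was 2 of 28 AP-1 partner and other leucine zipper genes, 2 of 31 other immediate early genes with MAFF in both, and 1 of 21 AP-1 targets. No member of the 10 SRF, ELK and EGR regulators, 15 MYC network genes, 20 MAP kinases and cascade kinases, or 21 MYC targets passed in edgeR, although 2, 2, 4 and 2 of them had an unadjusted p under 0.05, DESeq2 called 1 in each list, and limma called 0. With hairpin 1813 the 1 of 144 that passed (0.694%, where 0.0475% of all genes did) was CXCL8 (711 ± 172 CPM against 186 ± 38.6 CPM, log2 fold change 1.93, edgeR adjusted p 0.00374). Between the hairpins 0 of 144 passed in edgeR, while 17 had an unadjusted p under 0.05, DESeq2 called 4 and limma 3.

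In U87 with hairpin 1812, 10 of the 144 rose and 13 fell, or 16%, where 13.6% of all genes passed. Other immediate early genes went both ways. The signalling regulator RGS2 (0.84), DUSP5 (0.79) and the factor KLF4 (1.11) rose, and BTG2 (-1.68) and the small GTPase RHOB (-0.87) fell. Among 28 leucine zipper genes 3 fell, DDIT3 (16.9 ± 1.09 CPM against 24.5 ± 2.02 CPM, -0.54, edgeR adjusted p 0.0209) and the barely detected NRL (0.195 ± 0.110 CPM against 0.692 ± 0.292 CPM, adjusted p 0.0275) among them. MRTFA, a coactivator of serum response factor, fell (16.6 ± 1.07 CPM against 30.7 ± 2.44 CPM, -0.88, edgeR adjusted p 0.00221) as the 1 of 10 regulators that passed. In the MYC network MXD3 and CIP2A rose and MYCL and the ubiquitin ligase gene FBXW7 fell, 4 of 15, and MAPK12 (-0.78) and MAPK7 (-0.46) fell among 20 kinases. Of 21 AP-1 targets the protease genes PLAU (366 ± 139 CPM against 186 ± 31.3 CPM, 0.98) and MMP1 (1.70) rose, and EREG (-1.31) and CXCL8 (-0.72) fell. Of 21 MYC targets the nucleolar gene GNL3 (0.53), LDHA (0.56) and the transferrin receptor TFRC (0.39) rose and MYBBP1A (-0.46) fell. The effect of hairpin 1812 differed between the lines for 9 of the 144, or 6.25% beside 4.51% of all genes. Of these 3 were higher in U87 minus U251, PLAU (1.28), the transferrin receptor TFRC (0.83) and CIP2A (0.77), and 6 were lower, among them CXCL8 (-2.48), MAFF (-1.31), DDIT3 (-1.28) and MAPK7 (-0.80).

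Between the lines 78 of the 144 passed in the controls (54.2%) and 81 in the hairpin 1812 libraries (56.2%), beside 50% and 51.7% of all genes. The counts in the controls were 14 of 28 leucine zipper genes, 19 of 31 immediate early genes, 5 of 10 regulators, 6 of 15 MYC network genes, 12 of 20 kinases, 13 of 21 AP-1 targets and 10 of 21 MYC targets. The matricellular genes CCN2 (log2 fold change 5.32) and CCN1 (3.31) were higher in U251 control. The stress gene IER3 (-3.92), the neuronal early gene ARC (-3.60), EGR2 (-3.88) and the EGR corepressor NAB2 (-1.51) were lower there, as were the protease gene MMP3 (-5.03). The growth factor gene EREG was near its floor in U251 control, at 0.218 CPM against 167 CPM in U87 control.

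Over the 9 U251 libraries, the 3 genes whose log2 CPM correlated best with each factor that passed in a hairpin comparison were taken from 7190 genes, as a description. For ATF3 they were VEGFC (Pearson r 0.983), UQCC1 (0.972) and BASP1 (0.971). For MYC they were DUSP5 (0.987), KRT81 (0.9704) and AVPI1 (0.958), and for FOSL2 they were ANO8 (0.973), RIC1 (0.967) and MAN2B2 (0.967). The libraries of a pair of genes share depth, group and library type, and with 3 groups of 3 such values are reached by any genes whose group levels follow the same order.

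Annotation limits the reading of some factors. No source used here states whether counting used strand. JUNB (1830 bases) lies wholly within HOOK2, and FOSB (7185 bases) wholly within ERCC1, both on the opposite strand, with 81 to 244 counts for HOOK2 and 810 to 1852 for ERCC1. FOSL2 shares 2225 bases with the antisense gene FLJ31356, which had 1 to 52 counts, and MYC shares 3554 bases with CASC11, which had 0 to 4. Where strand was not used, reads of such partners cannot be told apart, and JUNB and FOSB are given with that reserve.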

How the data were processed

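Per the submitters' processing notes, bcl2fastq 2.17.1.14, cutadapt 1.9.1, HISAT2 2.0.1, HTSeq 0.6.1, bedtools 2.17.0, DESeq2 and the build GRCh38 were used. Ribosomal RNA was depleted and libraries were strand-marked, per the labels' protocols, which name more than 1 extraction method and sequencer without assigning them. No source used here gives the annotation release. The authors deposited a count per gene and an FPKM value per gene and library, with exonic length. FPKM recomputed from those matched within 0.005.

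Counts were tested with edgeR 4.0.16 (R 4.3.3): TMM scaling, filterByExpr (16841 genes), 1 fit of 15 libraries with 5 group means, quasi-likelihood tests, Benjamini-Hochberg adjustment within each of 7 comparisons. It had 10 residual and 4.52 prior degrees of freedom. SE is the log2 fold change over the square root of F, and intervals are 95%. DESeq2 1.42.0, limma 3.58.1 on log2(FPKM + 1), DESeq2 size factors in edgeR, no filter, the compared groups only, the replicate number as a block, control replicate 1 as sole control, a library type term for control replicates 2 and 3, and leaving out each library were alternatives.

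Members, lists and settings were chosen with earlier results of these data known. All 10 members are reported in every comparison, and from each list up to 3 genes per direction with the smallest adjusted p, except in the comparisons between the lines, where fewer are given, and except for 1 result that is not reported here. Candidates for likeness had at least 5 FPKM. Replicate numbers come from the titles. Deviations from group means were correlated between same-numbered libraries. The values were above 0.1 in every pair for U251 hairpin 1812 and control (0.124 to 0.247) and for hairpin 1813 and control (0.270 to 0.462). The same held between the control lines (0.340 to 0.490). No correlation was computed between libraries with different numbers, so these values cannot tell whether the numbers pair the libraries. In the controls of both lines the replicate number also went with the library type. The reported fits have no block, and the blocked value stands beside a result where it changes the call.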

Additional observations from a re-analysis of the deposited data

Results flagged for a closer look

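The effect of hairpin 1812 on ATF3 differed between the lines by -1.86 log2 units (U87 minus U251, edgeR adjusted p 0.00204, SE 0.25). It was singled out because the same hairpin was set against control in both lines and the test of the difference passed. All 3 U251 hairpin libraries lay above all 3 U251 controls, whereas in U87 the hairpin libraries (11.4 to 16.0 CPM) overlapped with the controls (15.7 to 22.6 CPM). LAMP2 averaged 319 CPM with this hairpin and 694 CPM in control in U251, and 267 and 260 CPM in U87. The U87 hairpin libraries lay above control replicate 1 and below control replicates 2 and 3 in LAMP2. Whether LAMP2 has a part in the ATF3 difference was not tested. Against control replicate 1 of each line alone the difference was -2.43.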

How the results depend on the processing

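Of 1040 values of the 10 factors under alternatives, 955 kept their side of the threshold, 32 lost a call, 52 gained one and 1 reversed. A reversal here is a change of sign in which the reported or the alternative value passed. Changes of sign with no call on either side count among the 955. FOS in U87 with hairpin 1812, for example, kept its direction in 5 of 14. The reversal was JUNB in U87 with hairpin 1812, at -0.54 against control replicate 1 alone and 0.16 with all controls. In U87 with hairpin 1812, 2 factors passed, against 1 with no filter on low counts, 1 with the library type as a term, 4 against control replicate 1 alone, 0 with the compared groups only, and 1 to 6 with a library left out (6 without control replicate 1). In U251 with hairpin 1812, 2 passed, against 1 with control replicate 1 alone, 1 to 2 with a library left out, and 3 each with no filter, the replicate block, the library type term, the compared groups only, DESeq2 and limma. With hairpin 1813, 0 passed, against 1 by DESeq2. Between the hairpins 0 passed, against 1 with no filter, 2 with the library type term, 3 with control replicate 1 alone, 5 with the compared groups only, and 2 each by DESeq2 and limma. Between the controls 5 passed, against 3 with the compared groups only, 7 with the library type term, 7 with the replicate block and 4 to 7 with a library left out (7 without U87 control replicate 1). Between the hairpin 1812 libraries of both lines 5 passed, against 4 to 7. For the difference of the hairpin 1812 effects 1 passed, against 2 with the library type term, 3 with control replicate 1 alone, 2 by DESeq2, and 1 to 3 with a library left out (3 without U87 control replicate 1). Calls over all genes shifted as well. Without U87 control replicate 1, 4099 of 17441 genes passed higher and 4053 lower in U87 with hairpin 1812. For the difference of the hairpin 1812 effects, 1957 passed higher and 1948 lower in that setting. The cause of these shifts was not tested. The replicate block changed the calls of FOSL1, FOS and EGR1 given above. In the hairpin 1812 libraries of both lines, where same-numbered libraries correlated at 0.0109 to 0.151, the block changed that of JUN (-0.31, edgeR adjusted p 0.0481). It changed no other call of the 10 factors. In U87 same-numbered libraries correlated at -0.153 to 0.158 and between the hairpins at 0.0886 to 0.178, and the block left 2 and 0 factors passing. Over all genes, calls ran from 1 to 8152 in U87 with hairpin 1812 (2291 as reported), from 14 to 834 in U251 with hairpin 1812 (167, and 324 with the block), from 2 to 461 with hairpin 1813 (8), from 0 to 625 between the hairpins (13), from 5412 to 10329 between the controls (8426) and from 229 to 3905 for the difference of effects (760). Depth limits FOS and FOSB most.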
